A study of Pistacia chinensis with 8 samples.

Results

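Plants hold their small RNA machinery in check through microRNAs that target the machinery itself. In Arabidopsis, miR162 targets the mRNA of DCL1, the Dicer-like enzyme that cuts microRNAs from their precursors. miR168 targets AGO1, the Argonaute that carries most microRNAs, and miR403 targets AGO2, an Argonaute known for antiviral silencing. DCL1 and AGO1 are thereby under negative feedback from a small RNA that depends on the pathway. In Arabidopsis the 5p arm of the miR168 precursor is the guide strand and its 3p arm is the passenger strand, while for miR162 and miR403 the 3p arm is the guide.

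miRNA reads had been counted in inflorescence buds of Pistacia chinensis, the Chinese pistache, a tree with single-sex and mixed-sex plants. The rows described here are those of that table whose name, after the species prefix, is miR162, miR168 or miR403. There were 13 such rows of 471, with 3 for miR162, 6 for miR168 and 4 for miR403. The names were borrowed from 8 species, with prefixes such as ath for Arabidopsis and gma for soybean. The rows are named as in the table, and no sequences were used here.

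The buds came from female trees of strain C1, male trees of strain X1, and monoecious female and monoecious bisexual buds of strain T2, each at developmental stages B and C. From the labelled sex types, female and monoecious female buds are grouped here as pistillate and male and bisexual buds as stamen-bearing. No treatment was labelled, and the labels do not say whether a library came from 1 tree or a pool. With 1 library for each sex type at each stage, 8 in all, no group had a replicate, and sex was confounded with strain between female and male and between the sexual systems.

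The libraries held 160129 reads on miRNA rows in bisexual buds at stage B and 419169 to 1159015 in the other 7. A single read was worth 6.24 RPM (reads of a row per 1000000 reads of its library) in that shallow library and 0.863 to 2.39 in the others. Levels are given as CPM, which is RPM scaled with TMM factors that correct for differences in library composition. Values without TMM factors are called RPM. The TMM factors were 0.686 to 0.775 in 3 stage B libraries, 1.02 in the bisexual library of that stage and 1.22 to 1.32 in the stage C libraries. Stage changes therefore depended on the scaling, and over all 248 tested rows the median log2 change between stages was 0.18 with TMM and 0.87 with total counts alone. Intervals of shares and of ratios of 2 libraries are exact 95% binomial intervals. They cover counting error only, because with 1 library per group the spread between libraries of a group was not measured. PCR copies were not told apart by molecular identifiers, so the intervals may be too narrow even for counting error. In these bulk buds, fewer cells that make a miRNA and less of it per cell cannot be told apart.

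miR162, the regulator of DCL1, was almost unread in these libraries. Its 3 rows, ath-miR162a-3p, cln-miR162 and zma-miR162-3p, each held 1 read in male buds at stage C and 0 reads in the other 7 libraries. The 3 names may hold the same single read. A count of 0 allows up to 3 reads in a library, which is 2.59 to 6.34 RPM in 6 of the libraries at 0 and 18.7 RPM in bisexual buds at stage B. Changes of miR162 between sex types or stages were not detectable at this depth.

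Further rows were too low to test. The miR168 row bna-miR168b held 0 to 3 reads, and sly-miR168a-3p and bra-miR403-5p were read once each, in bisexual buds of stage C alone. sly-miR403-5p, named for the passenger arm of miR403, held 0, 2, 2 and 0 reads at stage B across female, male, monoecious female and bisexual buds and 6, 6, 4 and 3 reads at stage C. Only 3 of these counts, of sly-miR403-5p at stage C, lie above the 3 reads that a count of 0 allows.

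A total of 6 member rows had at least 10 reads in at least 2 libraries and were tested, none of them of miR162. ath-miR168a-5p and gma-miR168b held equal counts in every library, so the former stands for both. aau-miR168, whose name gives no arm, differed from ath-miR168a-3p by at most 4 reads in any library, so the pair was not treated as independent. This left the miR168 5p arm, the miR168 3p arm under both names, and the miR403 rows ath-miR403-3p and gma-miR403a.

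The guide arm of miR168 was at a higher level at stage C than at stage B in every sex type. ath-miR168a-5p had 186, 125, 110 and 21 reads at stage B across female, male, monoecious female and bisexual buds, which is 234, 188, 188 and 129 CPM. At stage C it had 268, 212, 293 and 284 reads, which is 453, 392, 469 and 436 CPM. All 4 stage C libraries lay above all 4 stage B libraries, on the TMM scale and in RPM alike.

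The mean level of ath-miR168a-5p was 185 ± 43.1 CPM at stage B and 438 ± 33.2 CPM at stage C (SD over 4 libraries, 1 of each sex type). The stage C to stage B ratio was 1.94 in female buds (95% interval 1.60 to 2.35) and 2.09 in male buds (1.67 to 2.63). It was 2.49 in monoecious female buds (1.99 to 3.13) and 3.39 in bisexual buds (2.17 to 5.56). Each interval lay above 1. Over the 207 tested rows left when near-identical rows of a family were counted once, the median ratio in the same order, with 1 CPM added to each level, was 1.05, 1.04, 0.937 and 1.24. With total reads as the scale the ratios of ath-miR168a-5p were 3.48 to 4.39 and those medians 1.53 to 1.87.

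In the order of levels on the TMM scale, the 4 stage C libraries of ath-miR168a-5p did not differ between neighbours beyond counting error, nor did the 4 stage B libraries. The step between the lowest stage C and the highest stage B library, male buds at stage C over female buds at stage B, was 1.68-fold (1.37 to 2.05). Small steps can add up, and female buds at stage B were 1.82 times the bisexual buds of that stage (1.15 to 3.00), on 186 and 21 reads, which is beyond counting error on the TMM scale. With total reads as the scale that ratio was 1.22, with an interval that includes 1 (0.777 to 2.02). Within stage C the highest library was 1.20 times the lowest (0.999 to 1.43). The libraries at the ends of a stage, here and below, were picked after ranking. Their intervals therefore exclude 1 more often than those of a pair fixed beforehand. Over the same 207 rows, the median of the highest over the lowest level, with 1 CPM added to each level, was 4.43 at stage B and 2.03 at stage C.

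**Figure D1:**
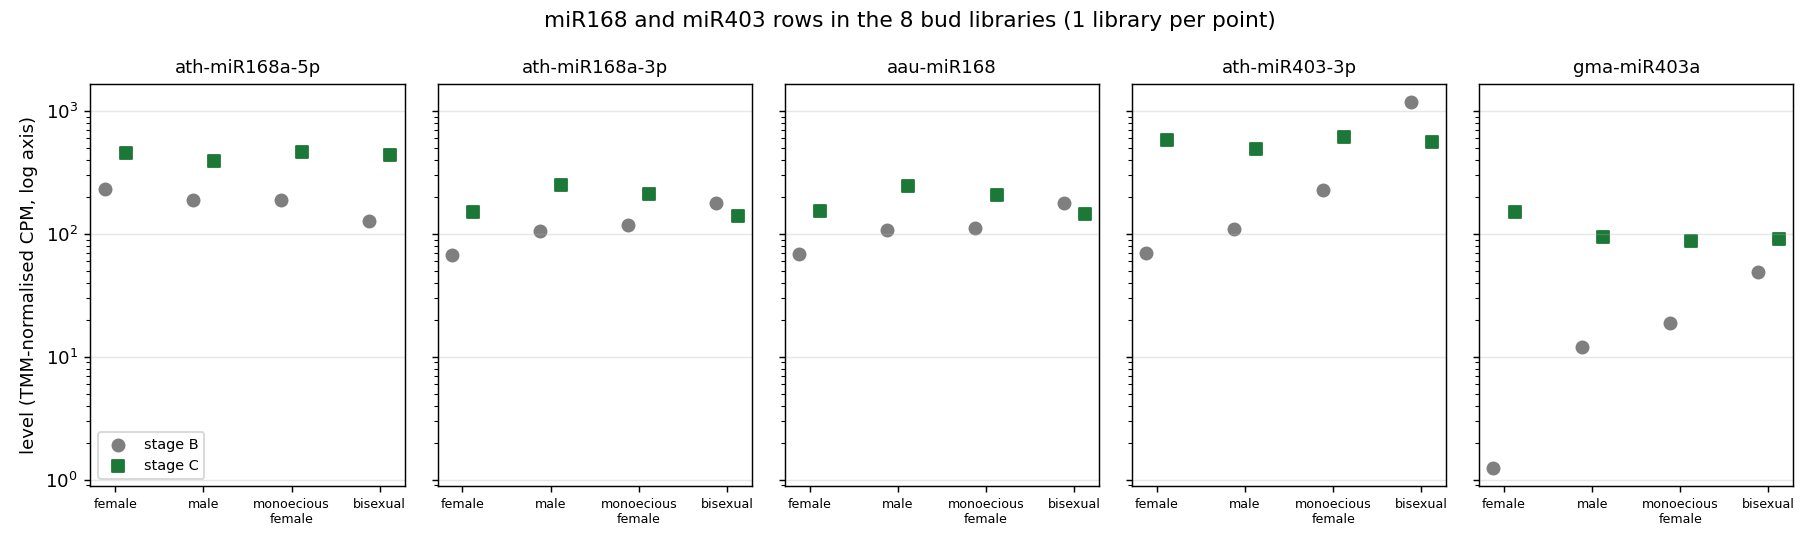
Level of each tested row in the 8 libraries (TMM-normalised CPM on a log axis), by sex type on the horizontal axis and with stage B as circles and stage C as squares; each point is 1 library, so there are no error bars. ath-miR168a-5p sits at 129 to 234 CPM at stage B and 392 to 469 CPM at stage C, while ath-miR403-3p runs from 70.4 to 1189 CPM at stage B.

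The passenger arm of miR168 had its highest stage B level in bisexual buds, where the guide arm had its lowest, on 21 reads. For the guide arm the next library, male buds, was 1.46 times as high on the TMM scale, with an interval that includes 1 (0.913 to 2.44). ath-miR168a-3p had 54, 71, 69 and 29 reads at stage B across female, male, monoecious female and bisexual buds, at 67.9, 107, 118 and 178 CPM. At stage C it had 90, 135, 133 and 92 reads, at 152, 249.8, 213 and 141 CPM. The stages overlapped, because bisexual buds at stage B lay above female and bisexual buds at stage C, though on 29 reads the step to female buds at stage C was 1.17-fold with an interval that includes 1 (0.741 to 1.79). The step from male to female buds at stage B was the only one of 7 between neighbours that lay beyond counting error on the TMM scale. From end to end the levels differed 2.62-fold within stage B (1.61 to 4.19) and 1.77-fold within stage C (1.35 to 2.33).

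The ratio of stage C to stage B for ath-miR168a-3p was 2.24 in female buds (1.58 to 3.20), 2.35 in male buds (1.75 to 3.17) and 1.8 in monoecious female buds (1.34 to 2.45). In bisexual buds it was 0.795, with an interval of 0.518 to 1.25 that includes 1. With total reads as the scale the ratios were 4.08, 3.90, 3.09 and 1.03 in the same order. In RPM all stage C libraries lay above all stage B libraries, though narrowly in bisexual buds, at 187 against 181. aau-miR168 gave 116.6 ± 45.1 CPM at stage B and 188 ± 46.4 CPM at stage C, close to the 118 ± 45.5 and 189 ± 51.4 CPM of ath-miR168a-3p.

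Between male and female buds the 3p arm was higher in male buds at both stages, by 1.57-fold at stage B (1.09 to 2.28) and 1.64-fold at stage C (1.25 to 2.17). The 5p arm was at 0.802 (0.634 to 1.01) and 0.866 (0.719 to 1.04) of the female level at the same stages, intervals that include 1. The share of the 5p arm among reads of ath-miR168a-5p and ath-miR168a-3p compares the arms within a library and does not depend on scaling. It was 77.5% in female buds at stage B (95% interval 71.7 to 82.6%) and 74.9% at stage C (70.0 to 79.3%). In male buds it was 63.8% (56.6 to 70.5%) and 61.1% (55.7 to 66.3%). The male and female intervals did not overlap at either stage.

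In monoecious female buds the 5p share at stage B was 61.5% (53.9 to 68.6%), and at stage C it was 68.8% (64.1 to 73.2%). In bisexual buds it went from 42% at stage B, on 50 reads (28.2 to 56.8%), to 75.5% at stage C, on 376 reads (70.9 to 79.8%). Bisexual buds at stage B were thus the only one of the 8 libraries in which the 3p arm held more of these reads than the 5p arm, though the interval there includes an equal split. Both stages of the bisexual share lie apart by more than counting error. The shares were compared between sex types after their values were seen, and with 1 library per group they have no test beyond counting error.

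miR403, the regulator of AGO2, varied most at stage B. ath-miR403-3p had 56, 73, 134 and 194 reads at stage B across female, male, monoecious female and bisexual buds, although the bisexual library was the shallowest. This is 70.4, 109.5, 229.5 and 1189 CPM. At stage C it had 344, 266, 382 and 364 reads, or 582, 492, 612 and 559 CPM. Levels at stage C were within 1.24 times of each other, against a 16.9-fold range at stage B. A wider stage B was general. Over the 207 distinct tested rows the median range, with 1 CPM added to each level, was 4.43-fold at stage B and 2.03-fold at stage C.

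Bisexual buds at stage B held the highest level of ath-miR403-3p of all 8 libraries, 1.94 times (1.63 to 2.32) the next, monoecious female buds at stage C. The 4 stage C libraries followed, with no neighbours that differed beyond counting error, while the highest of them was 1.24 times the lowest (1.06 to 1.46). Below them each step down was larger than counting error, from male buds at stage C to monoecious female buds at stage B (2.14-fold, 1.74 to 2.66), to male buds at stage B (2.10-fold, 1.56 to 2.83) and to female buds at stage B (1.56-fold, 1.08 to 2.25). Among distinct rows ranked by reads, ath-miR403-3p was in place 35 of 339 in bisexual buds at stage B and in places 76 to 102 in the other stage B libraries. At stage C it was in places 46 to 56.

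The bisexual library at stage B was the highest library for 45 of 207 distinct tested rows. Monoecious female buds at stage B, of the same strain, were highest for 38, and each other library for 10 to 27. The bisexual library was also the shallowest. The part of depth and of this wider pattern in the miR403 level was not tested.

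The stage C to stage B ratio of ath-miR403-3p was 8.27 in female buds (6.22 to 11.2), 4.49 in male buds (3.46 to 5.91) and 2.67 in monoecious female buds (2.18 to 3.27). In bisexual buds it was 0.470 (0.394 to 0.562), the opposite direction. With total reads as the scale the ratios were 15.0, 7.47, 4.57 and 0.610 in the same order, and the bisexual interval of 0.511 to 0.729 stayed below 1. The sex types therefore differed more at stage B than at stage C, where male buds were at 0.846 times the female level (0.718 to 0.996, and 0.742 to 1.03 on total reads) and bisexual at 0.913 times the monoecious female level (0.789 to 1.06). At stage B the corresponding ratios were 1.56 (1.08 to 2.25) and 5.18 (4.14 to 6.51).

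**Figure D2:**
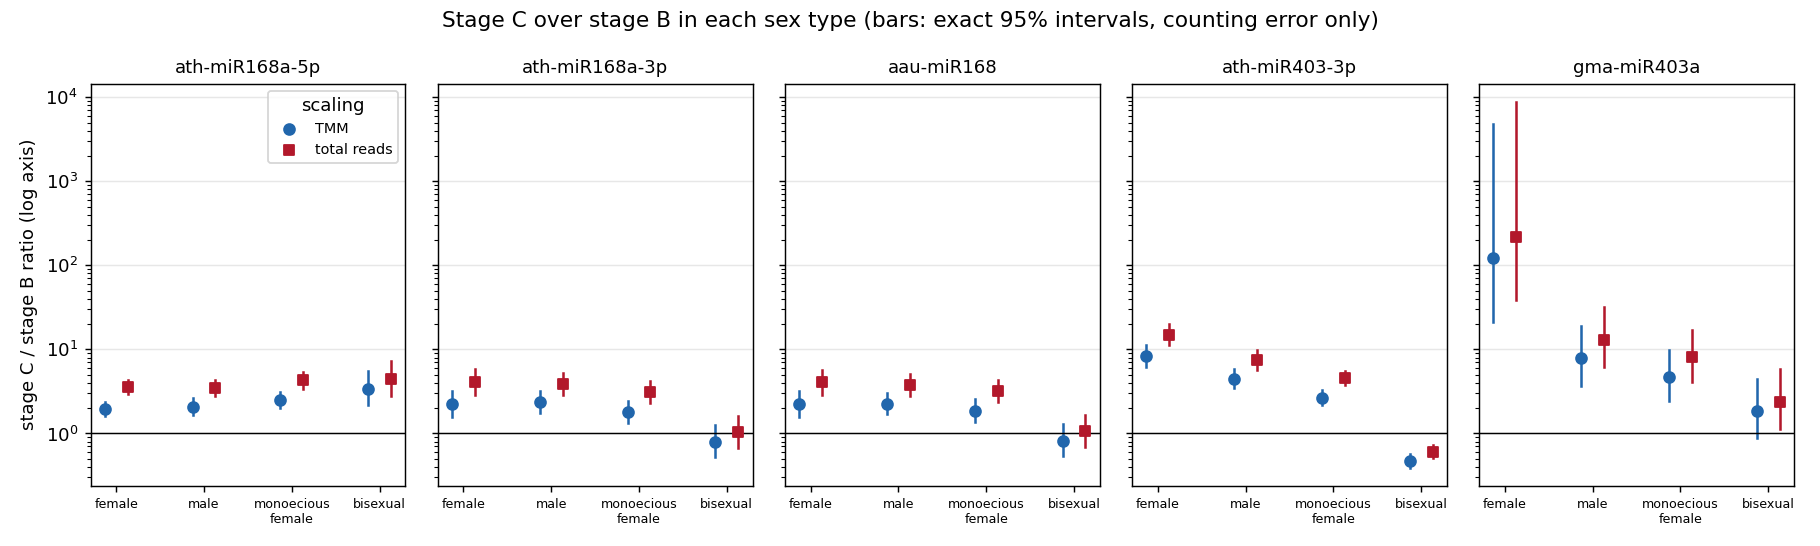
Ratio of the stage C to the stage B level of each tested row in each sex type, on a log axis, with TMM scaling as circles and total reads as squares; bars are exact 95% intervals for counting error only and the line marks a ratio of 1. ath-miR403-3p lies above 1 in female, male and monoecious female buds and at 0.470 (TMM) in bisexual buds, while ath-miR168a-5p lies above 1 in all 4.

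The second miR403 row, gma-miR403a, was low at stage B and higher at stage C. It had 1, 8, 11 and 8 reads at stage B across female, male, monoecious female and bisexual buds and 90, 51, 55 and 59 reads at stage C. In CPM this was 1.26, 12, 18.8 and 49.0 at stage B and 152, 94.4, 88.1 and 90.6 at stage C. All stage C libraries lay above all stage B libraries on both scales.

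The stage ratio of gma-miR403a was 7.86 in male buds (3.70 to 19.2) and 4.68 in monoecious female buds (2.42 to 9.91). In bisexual buds it was 1.85, with an interval of 0.879 to 4.48 that includes 1. In female buds it rested on 1 read at stage B and came to 121, with an interval of 21.2 to 4836. With total reads as the scale the ratios were 13.1 in male, 8.02 in monoecious female and 220.3 in female buds, and the bisexual ratio of 2.40 had an interval above 1 (1.14 to 5.81). At stage C female buds held the highest level, 1.61 times that of male buds (1.13 to 2.32), while the other 3 stage C libraries did not differ between neighbours beyond counting error.

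Within a library, gma-miR403a took 1.75, 9.88, 7.59 and 3.96% of the reads of both miR403 rows at stage B across female, male, monoecious female and bisexual buds. At stage C it took 20.7, 16.1, 12.6 and 13.9%. The 4 stage C shares all lay above the 4 stage B shares. That order is partly built in, because gma-miR403a met the minimum for testing only with its stage C reads included. These shares take the reads of both rows as separate, and whether some reads were counted under both names was not known. The intervals of the stages were apart in female buds (0.0444 to 9.39% and 17.0 to 24.9%) and bisexual buds (1.73 to 7.65% and 10.8 to 17.6%) and overlapped in male and monoecious female buds.

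The balance of the AGO2 and AGO1 regulators can be read within a library as the share of ath-miR403-3p among its own reads and those of ath-miR168a-5p. At stage B it was 23.1% in female buds (18.0 to 29.0%), 36.9% in male buds (30.1 to 44.0%), 54.9% in monoecious female buds (48.4 to 61.3%) and 90.2% in bisexual buds (85.5 to 93.9%). The stage B intervals did not overlap between any of the sex types. At stage C the share was 56.2, 55.6, 56.6 and 56.2% in the same order, with intervals that all lay between 51.1 and 60.4%. The spread between sex types at stage B was thus larger than counting error and that at stage C was not. This share was chosen after the values were seen.

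**Figure D3:**
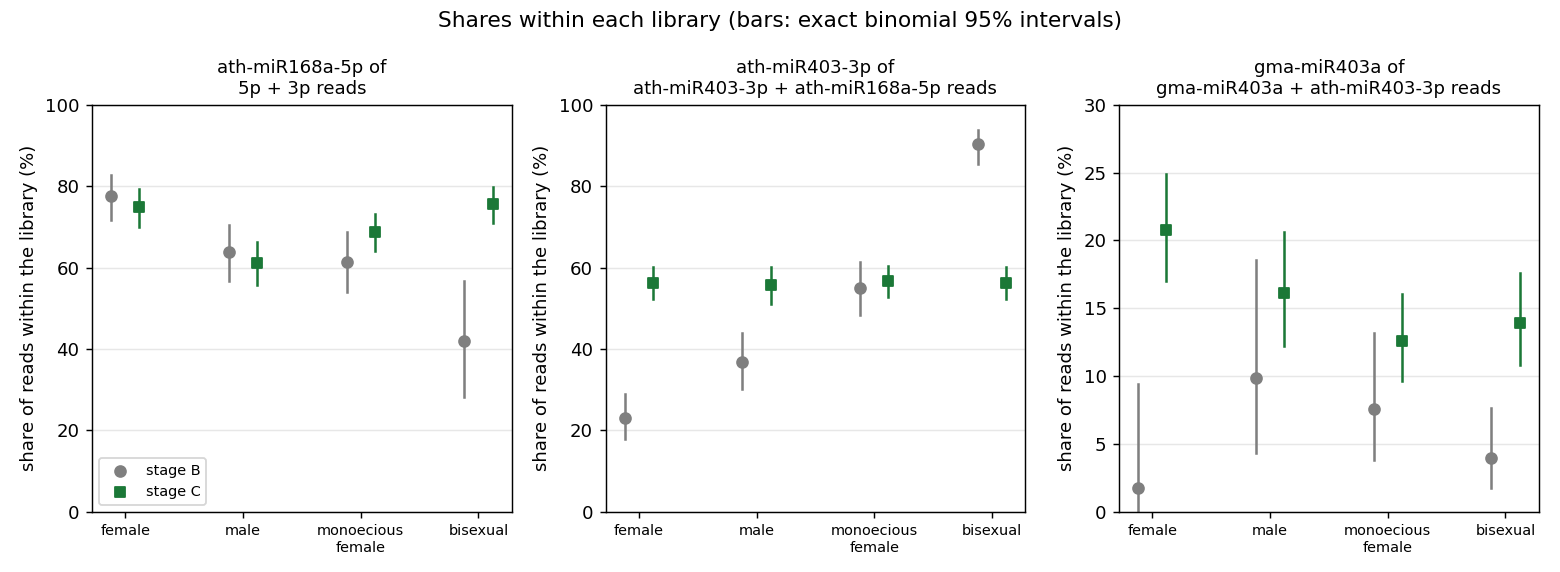
Shares of reads within each library (percent) for the miR168 arms, for ath-miR403-3p against ath-miR168a-5p and for gma-miR403a against ath-miR403-3p, by sex type, with stage B as circles and stage C as squares; bars are exact binomial 95% intervals, and the last panel has its own axis. The middle share runs from 23.1 to 90.2% at stage B and from 55.6 to 56.6% at stage C.

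Across the whole table, stage C was compared with stage B in a model with additive terms for stage and for sex type. Its spread is the interaction of stage and sex type, since no group had replicates, and so p-values measure that spread and not one between trees. edgeR called 31 of 248 rows higher at stage C (12.5%) and 16 lower (6.45%) at an adjusted p under 0.05. Of the 6 tested member rows it called 0, with 79 of all rows at an unadjusted p under 0.05. All 6 had positive log2 changes, and their median was 1.26 against 0.18 over all rows. The 6 are not independent, since ath-miR168a-5p and gma-miR168b are equal and aau-miR168 and ath-miR168a-3p nearly so. Their median is the value of the equal pair. The share of all rows with a positive change was not counted.

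ath-miR168a-5p had a log2 change of 1.26 (SE 0.36, edgeR adjusted p = 0.0513) and was higher at stage C in 4 of 4 sex types. gma-miR403a had 2.85 (SE 0.89, edgeR adjusted p = 0.0641) and was also higher in 4 of 4. At stage B gma-miR403a held only 1 read in female buds and, at most, 11 reads in monoecious female buds. It therefore met the minimum for testing only with its stage C reads included. Its stage change, its calls under other settings, its non-overlap of the stages and its share of the miR403 reads carry this limit. ath-miR403-3p had 1.46 (SE 0.74, edgeR adjusted p = 0.201), higher in 3 of 4. ath-miR168a-3p had 0.74 (SE 0.43, edgeR adjusted p = 0.249) and aau-miR168 0.75 (SE 0.42, edgeR adjusted p = 0.243), each higher in 3 of 4.

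The calls turned on the bisexual libraries and on the tool. Without both bisexual libraries, edgeR called all 6 tested member rows higher, while 30.4% of the 237 rows then tested were called higher. There ath-miR403-3p had a log2 change of 2.37 (edgeR adjusted p = 0.00253), gma-miR403a 3.66 (0.00489), ath-miR168a-5p 1.29 (0.00799) and ath-miR168a-3p 1.26 (0.00898). With all libraries, DESeq2 called 3 member rows, namely ath-miR168a-5p with its equal row gma-miR168b (1.24, DESeq2 adjusted p = 0.00204) and gma-miR403a (2.91, DESeq2 adjusted p = 0.00330), and 19.8% of all rows higher. Total counts alone called the same 3 rows, when 21.8% of all rows were called higher, and so did a model of stage without sex type, at 14.5%. A minimum of 50 reads left ath-miR168a-5p and gma-miR168b called, with 15.7% of rows called higher. Thinning every library to the smallest left gma-miR168b alone (edgeR adjusted p = 0.0465), at 15.5%. Its equal row ath-miR168a-5p then had an edgeR adjusted p of 0.0506, so the pair parted only by the random draw of reads. Leaving out the bisexual library of stage B or that of stage C also gave 6 called member rows, with 29.7 and 26.1% of rows called higher. Non-overlap of the stages held for 3 of 6 member rows on the TMM scale, namely ath-miR168a-5p, its equal row gma-miR168b, and gma-miR403a. On that scale 17.3% of all rows had every stage C library above every stage B library. In RPM non-overlap held for 5 of 6, with both names of the miR168 3p arm added, against 27.0% of all rows.

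**Figure D4:**
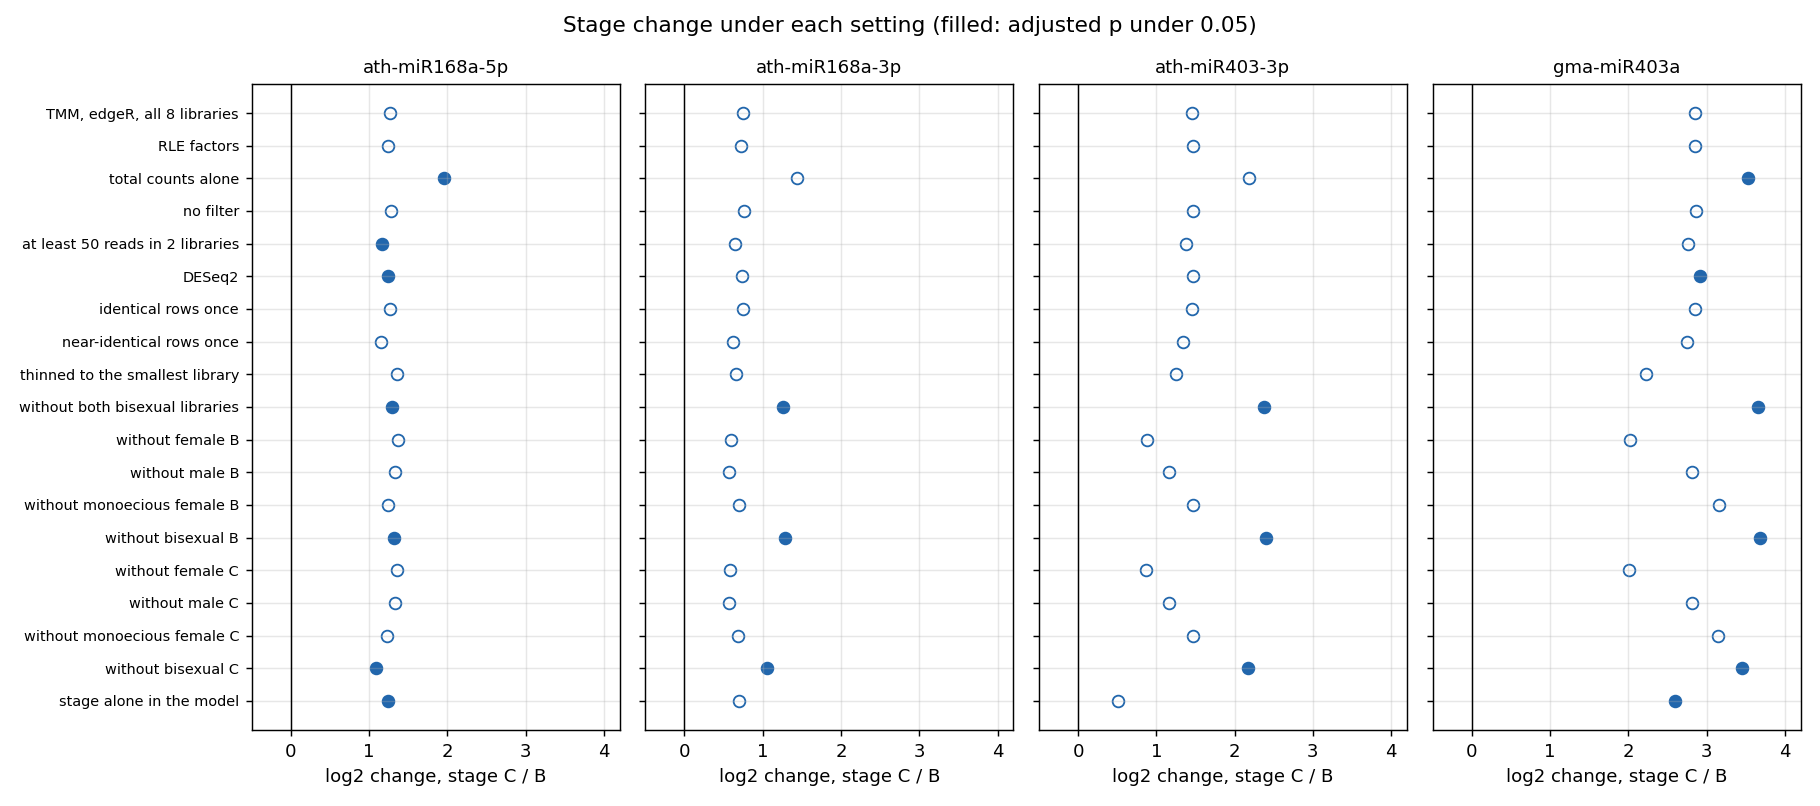
Log2 change from stage B to stage C of 4 member rows under each setting, with 1 line per setting; filled points have an adjusted p under 0.05 and open points do not. ath-miR168a-5p stays between 1.09 and 1.96, while ath-miR403-3p moves from 0.51 with stage alone in the model to 2.40 without the bisexual stage B library.

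Whether the stage change itself differed between buds was tested with interaction terms. For the sexual systems, the member with the smallest p was ath-miR403-3p, whose log2 stage change was lower in monoecious than in dioecious buds by a fitted difference of -2.44 (SE 1.09, edgeR adjusted p = 0.791). For stamen-bearing against pistillate buds it was also ath-miR403-3p, with -1.70 (SE 1.36, edgeR adjusted p = 1). edgeR called 0 of 248 rows in both tests (0%), with 8 and 2 rows at an unadjusted p under 0.05. The opposite direction of ath-miR403-3p in bisexual buds was therefore larger than counting error but was not shown to differ over the sexual systems or flower classes. Without the monoecious female library of stage C the difference between systems was -3.68 (edgeR adjusted p = 6.90e-05), when 26.4% of rows were called. When the stage B library of monoecious female buds was left out, the difference was about as large, at -3.69, but was not called (edgeR adjusted p = 0.0731), as 0% of rows were. In both fits the monoecious stage change is that of the bisexual pair alone. Without the bisexual library of stage B or of stage C, which leaves the monoecious female pair, the difference was smaller, at -1.35 and -1.14 (edgeR adjusted p = 0.686 and 0.826). Without the male library of stage B or of stage C, the difference between flower classes was -3.29 and -3.30, and both miR403 rows were called, with 25.6 and 25.8% of rows called. There the stamen-bearing stage change is that of the bisexual pair alone.

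Comparisons of sex types over both stages called no member row. In male against female buds the smallest p among distinct member rows was that of ath-miR168a-3p (log2 difference 0.69, SE 0.59, edgeR adjusted p = 0.996), higher in male buds at both stages. In each of the other 3 comparisons it was that of ath-miR403-3p. Bisexual against monoecious female buds gave 1.61 (SE 0.97, edgeR adjusted p = 0.711), monoecious against dioecious buds 1.46 (SE 0.71, adjusted p = 0.513) and stamen-bearing against pistillate buds 0.82 (SE 0.67, adjusted p = 0.847). Over all rows edgeR called 0% in male against female, 0% in bisexual against monoecious female, 0.403% in monoecious against dioecious and 0% in stamen-bearing against pistillate buds. In that order 12, 19, 27 and 12 rows had an unadjusted p under 0.05, and DESeq2 called 0, 10, 11 and 3 rows, with no member among them.

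These differences of ath-miR403-3p moved with the bisexual library of stage B. Without it, bisexual against monoecious female buds gave -0.57 and stamen-bearing against pistillate buds -0.23, both reversed, while monoecious against dioecious buds stayed positive at 0.47 (edgeR adjusted p = 0.542). Without the bisexual library of stage C, which leaves the stage B one to stand for bisexual buds, ath-miR403-3p was called in the comparisons of bisexual with monoecious female (2.72, edgeR adjusted p = 0.00819), monoecious with dioecious (2.15, 0.00334) and stamen-bearing with pistillate buds (1.41, 0.0255). In those fits 22.7, 13 and 17.6% of all rows were called.

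With the reads of a family summed, and near-identical rows counted once, miR168 had a log2 stage change of 0.59 (SE 0.34, edgeR adjusted p = 0.225) and miR403 1.21 (SE 0.61, edgeR adjusted p = 0.173). The miR168 sum holds the 3p reads under both names. The summed miR403 change was 1.83 and 1.81 without the bisexual library of stage B or of stage C (edgeR adjusted p = 2.50e-05 and 5.83e-05), when 27.1 and 28% of families were called higher, and 0.70 without the female library of stage B (0.503). With all libraries neither family passed, while 21.9% of the 96 families and predicted miRNAs tested did. miR162 was too low to test.

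Other miRNAs that act in silencing or start secondary small RNAs were taken from a list of 13 families, of which 6 had a row and 3 were tested. miR390, which binds AGO7 and starts the trans-acting siRNAs that silence auxin response factors, had a log2 stage change of 0.92 (SE 0.47, edgeR adjusted p = 0.173). miR482, which targets disease resistance genes and triggers phased siRNAs, fell by 1.45 in log2 terms (SE 0.40, edgeR adjusted p = 0.0357). miR472, of the same group of triggers, had -1.07 (SE 0.70, edgeR adjusted p = 0.279). miR828, miR2118 and miR2109 held at most 4 reads in any library. Thus 0 of 3 tested families were called higher and 1 was called lower, against 12.5 and 9.38% of the 96 families and predicted miRNAs. These calls depended on the scaling and on single libraries, which was looked at after the values were seen. With RLE factors miR482 had a log2 change of -1.28 and was not called (edgeR adjusted p = 0.0529). With total counts alone it had a log2 change of -0.36 (edgeR adjusted p = 0.559), miR472 turned to 0.12 (0.908) and miR390 had 2.04 (0.0400), with 22.9% of families then called higher. miR482 lost its call when any 1 of the 6 female, male and monoecious female libraries was left out (edgeR adjusted p = 0.0725 to 0.315), though its log2 change stayed between -1.78 and -1.02. The share of all families called in those 6 fits was not counted. Among single rows they called only 0 to 19, against 47 of 248 with all libraries, so the loss of calls was general. Without the bisexual library of stage B or of stage C all 3 families were called, miR390 higher and the others lower. In those fits 27.1 and 28% of all families were called higher and 24 and 24.7% lower.

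The rows whose levels were most like each member over the 8 libraries were found by Pearson's correlation of log2(CPM + 1) among 107 distinct rows of other families with a mean of at least 50 reads. For ath-miR168a-5p these were ppt-miR408b (r = 0.97), novel_16 (0.92) and ata-miR393-5p (0.91). Each of them was higher at stage C in 4 of 4 sex types, as ath-miR168a-5p was, and likeness within a stage was not computed. For ath-miR403-3p they were ath-miR396a-3p (r = 0.96), novel_118 (0.88) and smo-miR171b (0.85). ath-miR396a-3p had 54.0, 73.5, 92.5 and 649.6 CPM at stage B across female, male, monoecious female and bisexual buds and 219.9, 176, 243 and 319 CPM at stage C. Like ath-miR403-3p, it and novel_118 were highest in bisexual buds at stage B. With total reads as the scale, ath-miR396a-3p and novel_118 kept the first and the second place for ath-miR403-3p and smo-miR171b came in place 4, while for ath-miR168a-5p novel_16 came in place 1, ppt-miR408b in place 3 and ata-miR393-5p in place 4. These correlations describe 8 libraries that share stages and depths and carry no test. At stage B ppt-miR408b held 11, 11, 2 and 0 reads across female, male, monoecious female and bisexual buds, and ata-miR393-5p 6, 6, 10 and 1. Both reached the mean of 50 reads only with their stage C reads included. Their likeness to ath-miR168a-5p therefore rests on very few stage B reads.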

How the data were processed

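The deposited table held raw read counts per miRNA row, per the file headers, and TPM values that the authors made from them. TPM equalled the share of a column's reads scaled to 1000000 within 4.29e-05, with no length term, so only counts were tested. CASAVA 1.8 and Bowtie are named in the submitters' processing notes. For the miRBase release and the genome build, a statement was not given in the sources used here.

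Of all 471 rows, 248 reached 10 reads in 2 or more libraries. These were fitted with edgeR (version 4.0.16, R 4.3.3) by its quasi-likelihood F-test, with TMM factors and Benjamini-Hochberg adjustment over the 248 rows. The additive model had 3 residual degrees of freedom and a common dispersion of 0.268, and the interaction models had 2. SE is the size of the log2 change over the root of F. Rows of a family were near-identical where no library differed by more than 5% or 2 reads, which left 339 distinct rows. Named were all member rows for stage and the member with the smallest p elsewhere. The members and lists were chosen with earlier results of these data known. Alternatives included DESeq2 1.42.0, other scaling and filters, thinning and leaving out libraries. The code was also tested on simulated counts.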

Additional observations from a re-analysis of the deposited data

Results flagged for a closer look

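In 16 sets of 4 libraries of a stage (the levels of the tested member rows and the shares), a library far from the other 3 was looked for with Dixon's criterion, which chance meets in about 1 of 20 sets, and 2 sets met it. Each set joins the 4 sex types. ath-miR403-3p in bisexual buds at stage B, at 1189 CPM, lay far above the other stage B libraries at 70.4 to 229.5 CPM. gma-miR403a in female buds at stage C, at 152 CPM, lay above the other stage C libraries at 88.1 to 94.4 CPM.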

How the results depend on the processing

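All 5 distinct tested member rows, of which aau-miR168 and ath-miR168a-3p were nearly the same, kept a positive stage change under every setting run. The share of all rows that did so was not counted. The number of member rows called at stage C was 0 with edgeR, TMM and all libraries. It was 3 with total counts alone, 3 with DESeq2, 3 with stage alone in the model and 2 with a minimum of 50 reads. After thinning to the smallest library it was 1, gma-miR168b (edgeR adjusted p = 0.0465, against 0.0506 for its equal row ath-miR168a-5p). Without both bisexual libraries it was 6. Leaving out 1 library at a time gave 0 to 6. It was 6 only without either bisexual library, which takes that sex type out of the stage contrast. Each other such fit called 0 member rows, and few rows in all. Without the female library of stage B it called 4 of 244 rows, and without that of stage C 4 of 241. For the male libraries this was 19 of 246 and 19 of 244, and for the monoecious female ones 0 of 246 and 0 of 239. For the summed families the count of 0 became 1 with total counts alone (miR168), 1 with DESeq2 (miR403) and 1 without both bisexual libraries (miR403). The share of all families called was not counted with DESeq2 or without both bisexual libraries. With 1 library left out the count of summed families was 0 to 1. The sex type comparisons and interactions of ath-miR403-3p also moved when 1 library was left out. They ran from -0.57 to 2.72 in bisexual against monoecious female buds and from -0.23 to 1.41 in stamen-bearing against pistillate buds. For the stage effect by flower class they ran from -3.30 to 0.0673. The stage model compared the stages within sex types, and replicate numbers gave no pairs, since each group had 1 library. Of 3 listed families looked at after the values were seen, miR472 reversed to 0.12 with total counts alone. The depth of bisexual buds at stage B, with 21 reads of ath-miR168a-5p and 8 of gma-miR403a, limits what can be said of that library.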
